A study of Homo sapiens with 6 samples.

Results

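The matrix metalloproteinase (MMP) genes examined here were the 7 that lie side by side on 11q22 of the long arm of chromosome 11 (MMP7, MMP8, MMP10, MMP1, MMP3, MMP12 and MMP13) and 3 that lie on other chromosomes (MMP2, MMP9 and MMP14), 10 of the 20176 protein-coding genes of the annotation. They were chosen by name and not by a threshold on any measured value, although earlier results of these data were known. Chromatin accessibility was measured by ATAC-seq, in which a transposase cuts open chromatin and places with many cuts are called as peaks, in MDA-MB-231 cells, a human triple-negative breast cancer line. There were 3 libraries of the unedited line (Parental) and 3 libraries of SAP30-KO1, the same line after CRISPR/Cas9 editing with a guide against SAP30, a subunit of the SIN3 histone deacetylase complex. The knockout line was a mixture of several edited cell clones from this guide, and the labels name no other treatment of either group. For every library the deposited list held the highest point (summit) of each peak and a score. A summit was assigned to a gene when it fell between 20 kb upstream of the gene and the gene's end, and to its promoter when it was within 1 kb of any of its transcription start sites.

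MMPs are secreted or membrane-bound zinc proteases that cut collagens and other proteins of the extracellular matrix, and in breast tumours they are known for matrix remodelling and invasion. Most are made as inactive proenzymes, are activated by cutting, and are held in check by the TIMP proteins. The genes of the 11q22 cluster are classically inducible, with AP-1 (FOS/JUN) sites close to a TATA box in many of their promoters.

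The 6 lists held 29762 to 40650 summits, and because no read counts were among the files used, the depth behind each peak is unknown. To compare libraries, each score was replaced by its percentile among all summits of its own library (0 to 100, highest for the strongest peak), and summits of different libraries whose windows of 250 bp on each side overlapped were joined into 1 locus, which was given rank 0 in a library without a peak there. Over all 6 libraries this gave 56419 loci, 32892 of them with a peak in 3 or more libraries. The groups were called apart at a locus when all 3 SAP30-KO1 ranks were above or all were below the 3 Parental ranks. This was the case for 7.31% of the loci in 3 or more libraries in the lower direction and for 10.1% in the higher direction. No locus had an adjusted p under 0.988 by the exact permutation test with Benjamini-Hochberg adjustment over all 56419 loci. With 3 against 3 libraries the smallest p is 0.1, so no locus could have reached an adjusted p below 0.1. The promoters of the mesenchymal genes VIM and CD44 had a peak in 6 libraries and that of AXL in 3. Among genes of luminal breast cells, the CDH1 promoter had a peak in 0 libraries, ESR1 and PGR in 1 each and EPCAM in 5. The promoter of SAP30 itself carried a peak in all 6 libraries, and summits cannot show whether the gene was disrupted.

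The sequences below are of 4 open sites and of 2 promoters, all read from the GRCh37 (hg19) genome. The open sites are the 2 with a peak in every library and 2 in introns of MMP2. The open sites are 251 bases around the centre of the locus on the plus strand, and capitals mark matches on either strand to AP-1 (TGANTCA), TEAD (GGAATG), RUNX (TGTGGT) or ETS (AGGAAG) motifs. The first is the strongest and most regular site, 15.1 kb upstream of MMP9 (chr20:44622287-44622537, between genes), with AP-1 letters 100 bases before its centre.
MMP9 upstream site: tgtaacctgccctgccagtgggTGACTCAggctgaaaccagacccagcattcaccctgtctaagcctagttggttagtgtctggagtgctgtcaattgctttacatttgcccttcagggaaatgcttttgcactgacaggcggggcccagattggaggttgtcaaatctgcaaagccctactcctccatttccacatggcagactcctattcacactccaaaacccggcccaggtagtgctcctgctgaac
The next is the only site of the 11q22 cluster with a peak in every library, 7.84 kb upstream of MMP3 (chr11:102722055-102722305, between genes), with AP-1, TEAD and RUNX letters.
MMP3 upstream site: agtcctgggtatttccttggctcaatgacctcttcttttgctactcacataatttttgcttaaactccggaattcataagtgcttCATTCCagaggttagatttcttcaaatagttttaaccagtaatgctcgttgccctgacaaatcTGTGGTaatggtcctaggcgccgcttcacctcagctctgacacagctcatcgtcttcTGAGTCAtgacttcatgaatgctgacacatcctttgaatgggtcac
The last are the sites in introns of MMP2 with the largest differences between the group means, the first in intron 11 (chr16:55533786-55534036, with TEAD and ETS letters) and the second in intron 12 (chr16:55536810-55537060, with none of the 4 motifs).
MMP2 intron 11 site: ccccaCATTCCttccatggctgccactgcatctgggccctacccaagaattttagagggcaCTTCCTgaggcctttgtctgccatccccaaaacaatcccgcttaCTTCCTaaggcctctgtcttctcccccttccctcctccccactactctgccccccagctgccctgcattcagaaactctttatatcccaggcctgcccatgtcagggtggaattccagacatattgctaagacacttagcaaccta
MMP2 intron 12 site: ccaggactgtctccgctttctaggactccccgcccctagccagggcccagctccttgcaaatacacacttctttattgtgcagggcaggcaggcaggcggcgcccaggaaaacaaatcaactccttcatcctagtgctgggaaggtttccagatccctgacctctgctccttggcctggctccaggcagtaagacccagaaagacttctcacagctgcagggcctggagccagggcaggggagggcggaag

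The promoters are the 150 bases before the start site of the MANE Select transcript, the reference transcript of each gene, on the strand of the gene, with capitals at AP-1 letters (TGANTCA) and at those of a TATA box (TATAAA), searched on both strands. MMP7 (chr11:102401479-102401628, minus strand) and MMP10 (chr11:102651360-102651509, minus strand) are shown because they were the only ones with a promoter peak in any library.
MMP7 promoter: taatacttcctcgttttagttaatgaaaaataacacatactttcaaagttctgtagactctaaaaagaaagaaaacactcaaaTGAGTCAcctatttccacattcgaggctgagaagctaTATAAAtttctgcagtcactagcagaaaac
MMP10 promoter: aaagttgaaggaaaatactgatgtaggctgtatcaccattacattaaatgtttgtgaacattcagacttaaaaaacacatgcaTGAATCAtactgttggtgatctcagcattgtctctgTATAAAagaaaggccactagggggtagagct
Both promoters held AP-1 letters, which began 67 bases before the start site in each, and TATA box letters, which began 30 bases before it at MMP7 and 31 bases before it at MMP10. AP-1 letters were in 2.84% and TATA box letters in 6.56% of 18922 promoters of the same length. The GC content was 32.7% at MMP7 and 36.7% at MMP10, beside a median of 66% over all promoters. These matches describe letters and not bound factors.

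The first question was whether these genes had an open promoter in either group, and nearly all had none. A promoter peak was found for 2 of the 10 genes, each in 1 library, while 62.3% of all protein-coding genes had one in at least 1 library and 52.0% in 3 or more. MMP7, the matrilysin, had a summit 9 bases upstream of its start site in Parental 1, at rank 6.24. MMP10, stromelysin-2, had a summit 77 bases inside the gene in Parental 2, at rank 16.0. Both peaks were weak and neither appeared in a second library or in SAP30-KO1. For both the exact permutation test gave p = 1, which was fixed in advance and decides nothing. With a peak in 1 library, every assignment of the libraries gives a difference of the same size. The promoters of MMP1, MMP2, MMP3, MMP8, MMP9, MMP12, MMP13 and MMP14 had no peak in any of the 6 libraries. Over all protein-coding promoters with a peak in 3 or more libraries, the groups were apart and lower in SAP30-KO1 at 5.48% and higher at 7.19%.

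The other open sites of these genes lay away from their start sites. Counting every locus, also those in 1 library, the median over the 10 genes was 0.346 loci per 10 kb beside 0.285 over all protein-coding genes. Sites in several libraries were fewer: 6 of the 10 genes (60%) had no locus in 3 or more libraries. Over all protein-coding genes this share was 30.7%. The windows held 16 loci, 7 in the cluster and 9 at the other 3 genes, or 3.41 and 4.57 loci per 100 kb. Over the whole of 11q, which also includes ground outside gene windows, it was 2.20 per 100 kb. In the cluster 1 of the 7 loci was in 3 or more libraries, beside 991 of 1770 over 11q. Of the 16, 8 had a peak in a single library, 6 had one in 3 or more libraries and 2 had one in all 6, while over all loci the shares were 28.5%, 58.3% and 28.9%. Peaks of 7 loci were seen in Parental libraries alone and those of 1 locus in a SAP30-KO1 library alone, and each of these 8 loci rested on a single peak. In the cluster these were 5 of 7 loci, all Parental, and over 11q 32.5% of the loci were seen in Parental libraries alone and 9.49% in SAP30-KO1 libraries alone. At the other genes they were 2 Parental and 1 SAP30-KO1 of 9 loci, and over all loci the shares were 18.9% and 18.6%. No difference from these shares was tested. Every value is shown in the plot of ranks by locus and library.

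**Figure D1:**
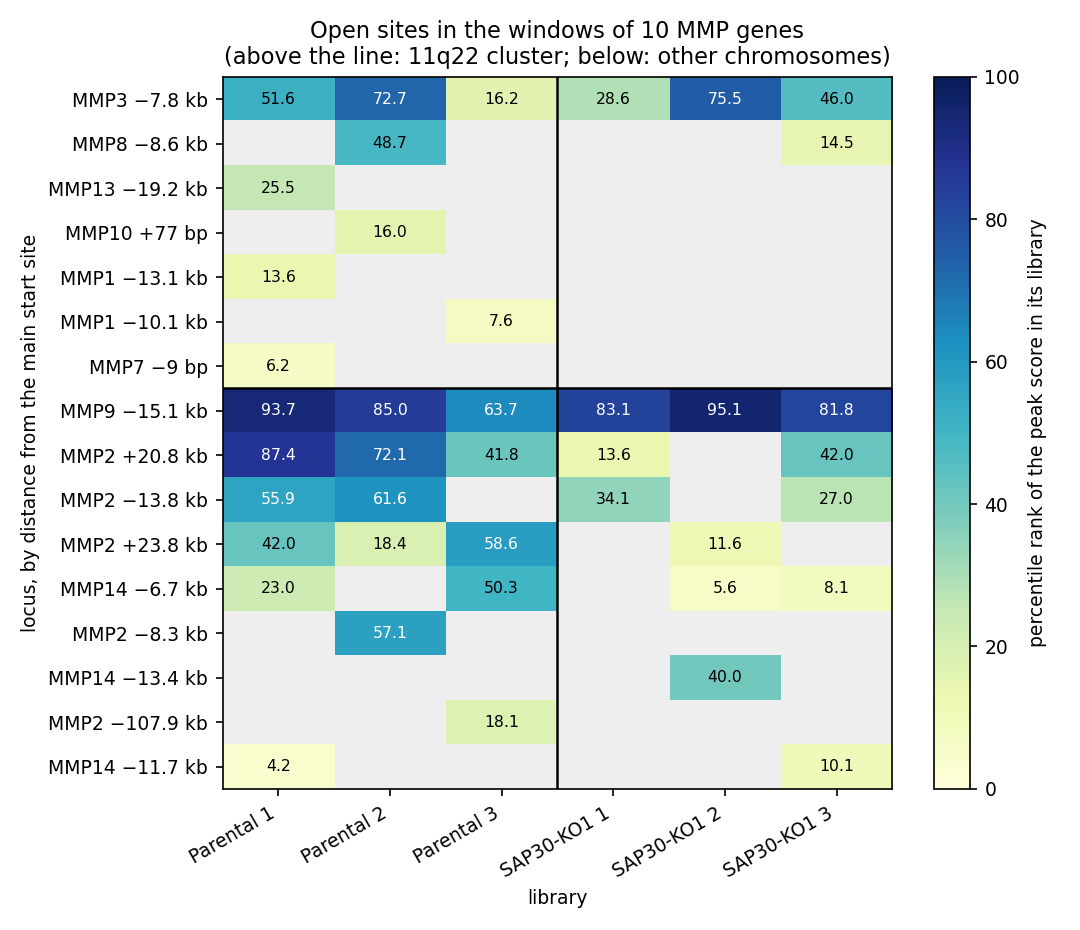
Percentile rank of the peak score (colour and number) at the 16 loci in the windows of the 10 MMP genes (rows, named by gene and distance from its main start site) in the 3 Parental and 3 SAP30-KO1 libraries (columns); grey marks a library without a peak. Only the sites at MMP3 and MMP9 are filled in all 6 columns, and 8 rows hold 1 value.

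Among the collagenases, which cut fibrillar collagen, no site was open in more than 2 libraries. MMP1 (chr11:102660132-102668891, minus strand), the interstitial collagenase, had 2 loci, each in 1 library. Its site 13.1 kb upstream had rank 13.6 in Parental 1 and its site 10.1 kb upstream had rank 7.61 in Parental 3, and both lay in the pseudogene WTAPP1. MMP8 (chr11:102582527-102597781, minus strand), the neutrophil collagenase, had 1 locus 8.62 kb upstream, at rank 48.7 in Parental 2 and 14.5 in SAP30-KO1 3. MMP13 (chr11:102813724-102826461, minus strand), collagenase-3, had 1 locus 19.2 kb upstream, at rank 25.5 in Parental 1. At none of these 4 sites did a group have a peak in more than 1 library.

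The stromelysins, which cut proteoglycans and activate other MMPs, held the most regular site of the cluster. The site 7.84 kb upstream of MMP3 (chr11:102706532-102714340, minus strand) had ranks of 51.6, 72.7 and 16.2 in Parental 1 to 3 and of 28.6, 75.5 and 46.0 in SAP30-KO1 1 to 3. The ranges overlapped, with the highest rank in SAP30-KO1 2 and the lowest in Parental 3. The means were 46.8 ± 28.6 and 50.01 ± 23.7 (SD, n = 3 each), a difference of 3.17 (exact permutation test, two-sided, p = 0.9), and its sign turned without Parental 3 (-12.2) or without SAP30-KO1 2 (-9.55). Other sites around it were mostly lower in SAP30-KO1. Of the 31 loci in 3 or more libraries within 1 Mb on each side of its window, 93.5% had a lower mean rank in SAP30-KO1, the groups were apart and lower at 17 (54.8%), and the median difference was -23.1. The difference at MMP3 was above that of 86.5% of the 11q loci. When summits were ranked among those of their own chromosome arm, the means were 43.3 in Parental and 54.9 in SAP30-KO1. MMP10 (chr11:102641233-102651359, minus strand) had no locus but the promoter peak given above.

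MMP7 (chr11:102391239-102401481, minus strand) likewise had only its promoter peak. MMP12 (chr11:102733467-102745712, minus strand), the macrophage elastase, had no peak anywhere in its 32.2 kb window in any library, as was the case for 19.2% of all protein-coding genes.

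The gelatinases cut denatured collagen and the type IV collagen of basement membranes, and the site of MMP9 was the strongest of all 16 by mean rank. At MMP9 (chr20:44637547-44645200, plus strand), the site 15.1 kb upstream had ranks of 93.7, 85.0 and 63.7 in Parental and of 83.1, 95.1 and 81.8 in SAP30-KO1. The peak was thus in the upper part of every list, and the ranges overlapped. The means were 80.8 ± 15.4 and 86.7 ± 7.35 (SD, n = 3 each), a difference of 5.85 (exact permutation test, two-sided, p = 0.8) whose sign turned without Parental 3 (-2.68). In the unit of the files the scores, -log10 of the q-value, ran from 6.82 to 15.4 in Parental and from 10.4 to 19.1 in SAP30-KO1. Its mean rank was above that of 87.6% of the loci in 3 or more libraries, although the MMP9 promoter itself had no peak.

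MMP2 (chr16:55423612-55540603, plus strand), the gelatinase that MMP14 activates, had 5 loci, 3 of them in 3 or more libraries, and its window held 10 summits over the Parental lists and 5 over the SAP30-KO1 lists. The annotated gene includes a long transcript that starts upstream of the MANE Select start site, so 4 of the 5 loci were intronic. The site in intron 11, 20.8 kb after the MANE Select start, had ranks of 87.4, 72.1 and 41.8 in Parental and of 13.6, 0 and 42.0 in SAP30-KO1. SAP30-KO1 3 just exceeded the lowest Parental library, so the ranges overlapped by this 1 value. The means were 67.1 ± 23.2 and 18.6 ± 21.4 (SD, n = 3 each), a difference of -48.5 (exact permutation test, two-sided, p = 0.2), and only 1.13% of all loci in 3 or more libraries had a lower difference.

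The MMP2 site in intron 12, 23.8 kb after the start, was the only one of the 6 sites in 3 or more libraries at which the groups were apart. Its ranks were 42.0, 18.4 and 58.6 in Parental, and it had a peak in SAP30-KO1 2 alone of the knockout libraries, at rank 11.6. The means were 39.7 ± 20.2 and 3.87 ± 6.71 (SD, n = 3 each), a difference of -35.8. The exact permutation test, two-sided, gave p = 0.1, the smallest that 3 against 3 libraries allow. The adjusted p over all loci was 0.988, so the difference did not pass the correction. No locus could have reached an adjusted p below 0.1, so this result does not set the site apart from any other. All peaks here were of low to middle rank, and among summits with q of 0.0001 or less the groups were no longer apart. The means were then 21.5 in Parental and 0 in SAP30-KO1. The Parental 2 peak, at a score of 3.98, fell just short of this limit and counted as 0.

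The third MMP2 site lay in an intron of the annotated gene, 13.8 kb upstream of the MANE Select start. It had ranks of 55.9, 61.6 and 0 in Parental and of 34.1, 0 and 27.0 in SAP30-KO1. The groups overlapped because Parental 3 had no peak (difference -18.8, exact permutation test, two-sided, p = 0.5). The remaining MMP2 sites were in 1 library each, at rank 57.1 in Parental 2 (8.35 kb upstream of the start) and at rank 18.1 in Parental 3 (107.9 kb upstream of it). Around MMP2, the 12 loci in 3 or more libraries within 1 Mb on each side had a median difference of 1.71, and the groups were apart and lower at 3 of them (25%). Over 16q the median was -4.60, 61.6% of the loci had a lower mean in SAP30-KO1, and 13.6% were apart and lower.

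MMP14 (chr14:23305769-23318250, plus strand), the membrane-type protease that activates pro-MMP2, had 3 loci, all of them nearer to other genes than to its own start site. The most frequent, 6.66 kb upstream, lay on the start site of MRPL52, a mitochondrial ribosomal protein gene. It had ranks of 23.0, 0 and 50.3 in Parental and of 0, 5.59 and 8.07 in SAP30-KO1, and the ranges overlapped because Parental 2 had no peak. The difference was -19.9 (exact permutation test, two-sided, p = 0.4). Without Parental 2 the means were 36.6 and 4.55. The groups were then apart by construction, since that library alone made them overlap. The other sites were near the start of SLC7A7, an amino acid transporter gene. The site 13.4 kb upstream of MMP14 was at rank 40.0 in SAP30-KO1 2, and the site 11.7 kb upstream was at 4.20 in Parental 1 and 10.1 in SAP30-KO1 3. With 0.924 loci per 10 kb, the MMP14 window was denser than those of 95.0% of the protein-coding genes, but its own promoter had none of them.

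**Figure D2:**
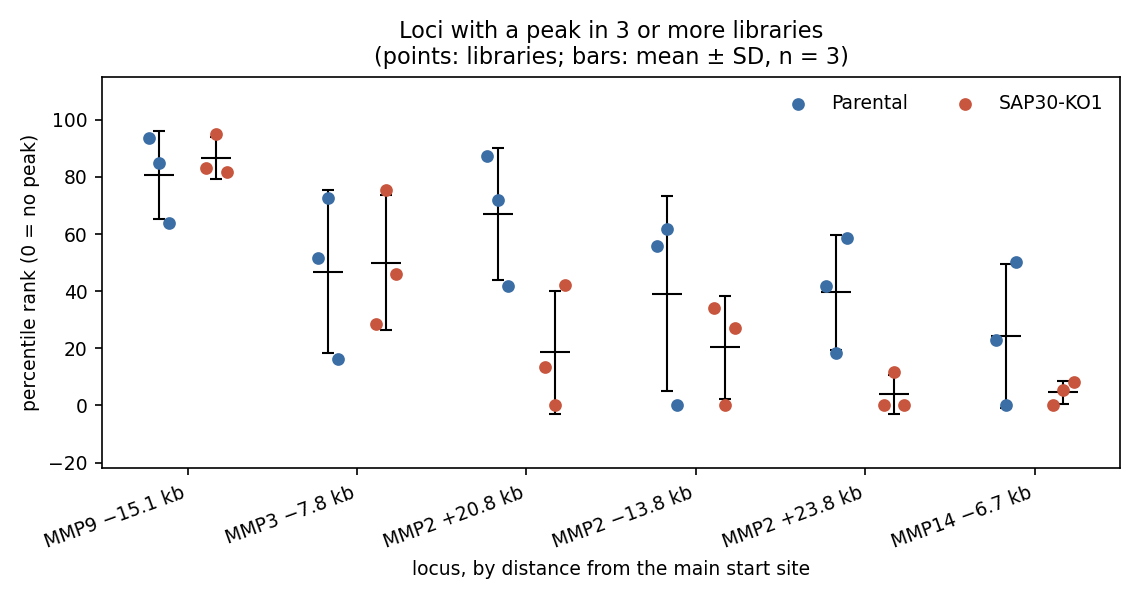
Percentile rank (0 where a library has no peak) at the 6 loci with a peak in 3 or more libraries; points are single libraries, and bars give the mean ± SD of the 3 Parental and 3 SAP30-KO1 libraries. The groups overlap at MMP9 and MMP3, and they are apart only at the MMP2 site 23.8 kb after the start (means 39.7 and 3.87).

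Of the 6 sites in 3 or more libraries, 4 had a lower and 2 a higher mean in SAP30-KO1, with a median difference of -19.3, beside 0.932 over all such loci. The groups were apart in the lower direction at 1 of the 6 and in the higher direction at 0. These sites are too few to read this share against the 7.31% given above. The cluster site among them (MMP3) was 3.17 higher in mean, and 4 of the 5 sites of MMP2, MMP9 and MMP14 were lower in mean.

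The next comparison set the 11q22 cluster against the 3 genes elsewhere, library by library. The cluster windows held 4, 3 and 2 summits in Parental and 1, 1 and 3 in SAP30-KO1, which is 0.890 ± 0.260 and 0.486 ± 0.341 per 10000 summits (SD, n = 3 each), with overlapping ranges. The overlap came from SAP30-KO1 3 alone, where 2 of the 3 summits fell at the 1 locus of MMP3 and were counted separately. The windows of MMP2, MMP9 and MMP14 held 6, 5 and 5 summits in Parental and 3, 4 and 5 in SAP30-KO1, which is 1.59 ± 0.0853 and 1.15 ± 0.268 per 10000, with all SAP30-KO1 shares below all Parental ones. Parental 3 and SAP30-KO1 3 both held 5 summits, and their shares of 1.49 and 1.46 differ only by the length of their lists. With equal list lengths the shares were still apart (means 1.68 and 0.896), and with windows from 5 kb upstream they overlapped (means 0.909 and 0.501). The counts are small, and 1 summit more or less moves a library by 0.246 to 0.336 per 10000.

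Averaged over its 7 loci, the cluster had mean ranks of 13.9, 19.6 and 3.40 in Parental and of 4.08, 10.8 and 8.64 in SAP30-KO1, so Parental 3 was below every knockout library. As 5 of the 7 loci were included through a single Parental peak, their SAP30-KO1 rank was 0 by construction, and the means say little of a change. Over the loci in 2 or more libraries, which are the sites of MMP3 and MMP8, the group means were 31.5 and 27.4, with overlapping ranges. Over the 9 loci of MMP2, MMP9 and MMP14 the mean ranks were 34.0, 32.7 and 25.8 in Parental and 14.5, 16.9 and 18.8 in SAP30-KO1. These were apart, with a difference of -14.1 beside -4.46 in the cluster. Of these 9 loci, 2 were likewise included through a single Parental peak and 1 through a single SAP30-KO1 peak. The 3 loci of MMP14 among them lay nearer to the starts of other genes. The ranks were also apart over the loci in 2 or more libraries (means 42.1 and 22.9). The cluster was below the other genes in each of the 6 libraries, with a difference (cluster minus other) of -20.2, -13.1 and -22.4 in Parental and of -10.5, -6.15 and -10.1 in SAP30-KO1. These ranges were apart, but they overlapped with q of at most 0.0001, with equal list lengths, over loci in 2 or more libraries, on log2 scores and without Parental 1 (means -9.11 and -3.04). With q of at most 0.0001 and over loci in 2 or more libraries the SAP30-KO1 mean was above 0 (3.29 and 4.52). The Parental mean stayed below 0 in both settings (-7.07 and -10.5). There the cluster was thus below the other genes in the Parental mean but not in the SAP30-KO1 mean. The gap is thus not established as narrower in the knockout line. These are descriptions of a few loci, 5 of the 9 from MMP2, and no p is given for them.

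**Figure D3:**
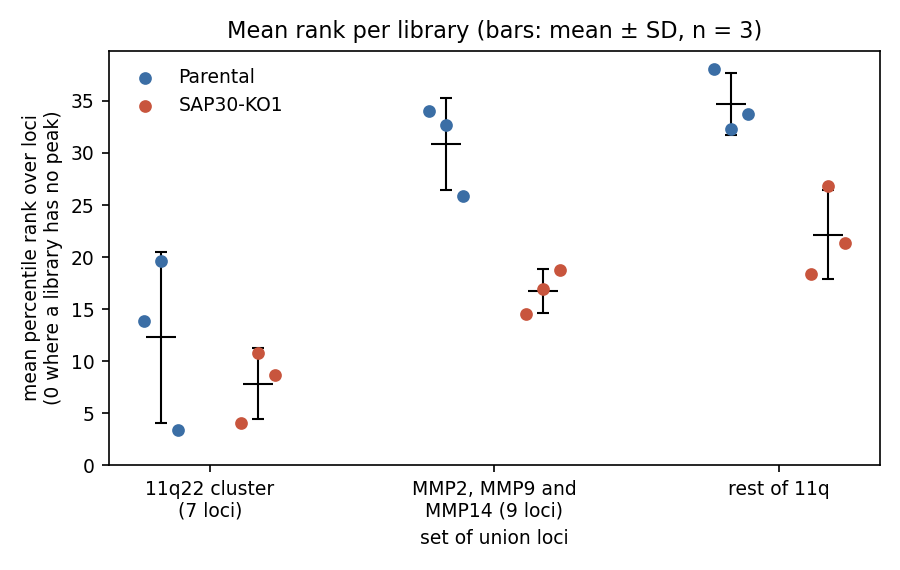
Mean percentile rank over the loci of the 11q22 cluster, over those of MMP2, MMP9 and MMP14, and over all other loci of 11q, for each library (points; bars are mean ± SD, n = 3). The SAP30-KO1 points lie below all Parental points for MMP2, MMP9 and MMP14 and for the rest of 11q, and among them for the cluster.

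The cluster also had to be read against its chromosome arm. Among the 991 loci of 11q in 3 or more libraries, the groups were apart and lower in SAP30-KO1 at 33.2%, and 83.5% had a lower mean, with a median difference of -16.7. Leaving out the cluster, the mean rank over the 11q loci was 38.1, 32.3 and 33.8 in Parental and 18.3, 26.8 and 21.3 in SAP30-KO1. Over all loci the cluster was below the rest of its arm in every library. The difference was -24.2, -12.7 and -30.4 in Parental and -14.2, -16.0 and -12.7 in SAP30-KO1, and these ranges overlapped. Here 5 of the 7 cluster loci had a single Parental peak and rank 0 elsewhere. Over loci in 2 or more libraries the highest difference was 16.1 in Parental and 0.452 in SAP30-KO1. With q of at most 0.0001 the highest was also positive in both groups (17.2 in Parental). The group means stayed negative in both settings (-15.7 and -12.3 in Parental, -3.66 and -3.29 in SAP30-KO1). The DNA copy number of the arm was not among the measurements, and its part in the lower ranks was not tested.

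Between the member windows, the 455 kb from the end of MMP7 to 20 kb upstream of MMP13 held 8 further loci, 3 of them in 3 or more libraries. Of these 3, 1 lay 32.2 kb from the end of MMP7 between genes, at rank 15.1 in Parental 1, 35.3 in SAP30-KO1 1 and 2.05 in SAP30-KO1 2, with group means of 5.03 and 12.4. The other 2 were the strongest and were in introns of MMP20, the enamel protease gene between MMP7 and MMP27, and all 3 were named after their values were seen. The first had ranks of 91.7, 55.5 and 45.6 in Parental and a peak in SAP30-KO1 2 alone of the knockout libraries, at rank 24.3, so the groups were apart. The second, 3.7 kb away, was open in all 6 libraries, at 74.7, 52.5 and 90.3 in Parental and 31.9, 55.2 and 59.5 in SAP30-KO1, with overlapping ranges. Over the whole span the libraries held 11, 6 and 5 summits in Parental and 3, 5 and 4 in SAP30-KO1. A site 20.5 kb beyond the MMP13 window had a mean rank of 78.2 in Parental and of 21.5 in SAP30-KO1, again apart.

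**Figure D4:**
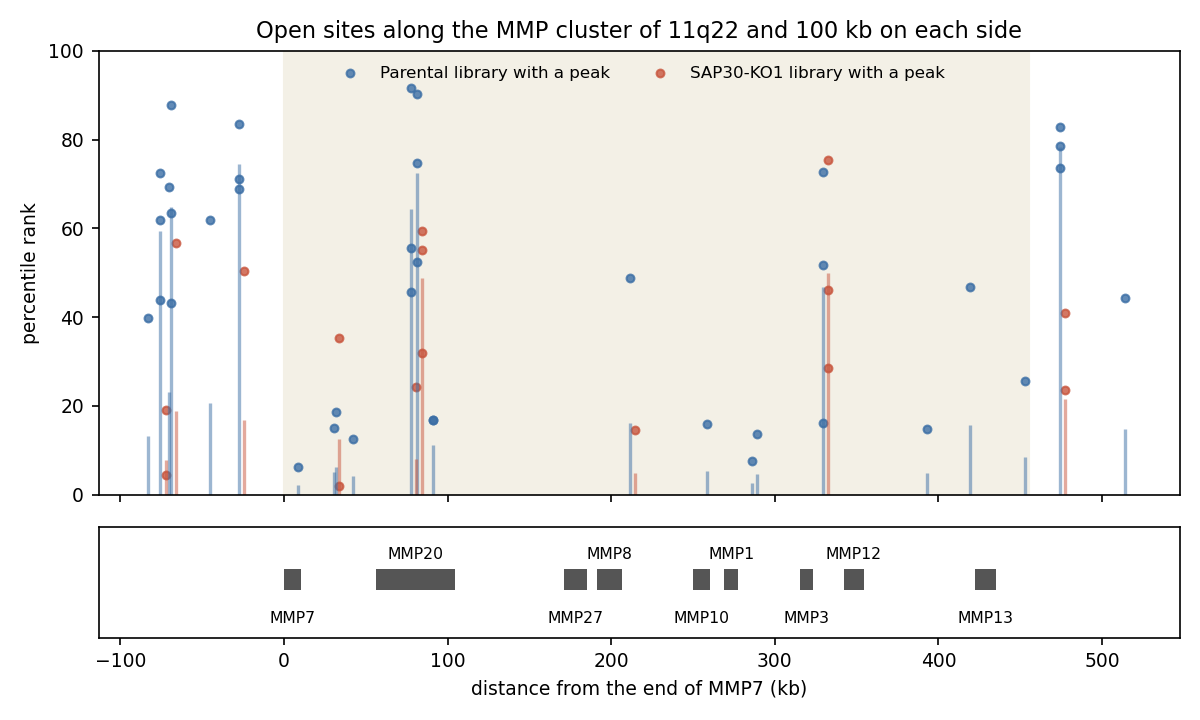
Percentile rank of each peak (points) and group mean with 0 for a library without a peak (vertical lines) along the MMP cluster (shaded) and 100 kb on each side, against distance from the end of MMP7 in kb; grey bars mark the MMP genes. Parental and SAP30-KO1 points lie at like heights at the MMP3 site, while at the MMP20 introns and beyond both ends most Parental points are higher.

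Also examined were 23 other genes of the family and its regulation, which were 13 other MMPs, 5 inhibitors and 5 activators. Of these 23, 11 had a promoter peak in any library, 6 in 3 or more and 1 in all 6. Only the 6 in 3 or more libraries could be apart by the rule used, and 0 of them were. Over all such promoters the groups were apart and lower in SAP30-KO1 at 5.48% and higher at 7.19%. These genes are too few to read the 0 against these shares. PLAUR, the urokinase receptor, which concentrates plasminogen activation at the cell surface, had the peak in all 6 libraries, at 60.8, 42.9 and 60.4 in Parental and 42.1, 69.0 and 37.6 in SAP30-KO1, with overlapping ranges (exact permutation test, two-sided, p = 0.8). PLAU, the urokinase itself, had a promoter peak in 5 libraries with overlapping ranges. With a promoter of 2.5 kb in place of 1 kb its ranges were apart, with means of 78.6 in Parental and 40.4 in SAP30-KO1. The share of all promoters apart at this width is not given.

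Among the inhibitors, 4 of 5 had a promoter peak, 3 of them in 3 or more libraries, and all 3 had a higher mean in SAP30-KO1 within overlapping ranges. TIMP4 had ranks of 59.4, 0 and 17.5 in Parental and of 54.7, 61.9 and 40.7 in SAP30-KO1, a difference of 26.8 (exact permutation test, two-sided, p = 0.3). TIMP1 had ranks of 64.5, 0 and 0 in Parental and of 65.0, 11.6 and 49.4 in SAP30-KO1, a difference of 20.5 (exact permutation test, two-sided, p = 0.5). RECK, a membrane-anchored inhibitor, ranged from 0 to 30.9 in Parental and from 16.7 to 33.5 in SAP30-KO1. Among the other MMPs 4 of 13 had a promoter peak, and only that of MMP16 was in 3 libraries. TIMP1, TIMP4, RECK and MMP16 were named after their values were seen.

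**Figure D5:**
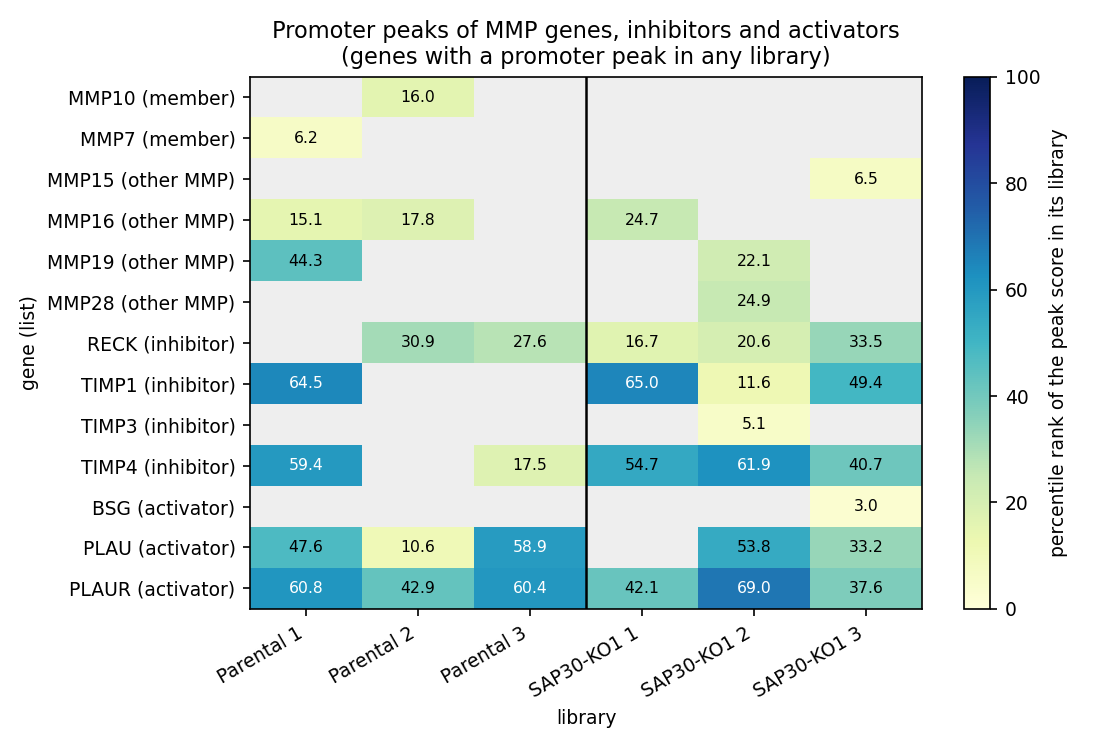
Percentile rank of the strongest promoter peak (colour and number) for each of the 10 MMP genes and the 23 related genes that had one in any library (rows) in the 6 libraries (columns); grey marks no peak. PLAUR alone is filled in all 6 columns, and the 2 MMP genes shown, MMP7 and MMP10, are filled in 1 each.

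The letters of the sites were also counted. Of the 16 loci, 5 held AP-1, 4 TEAD, 3 RUNX and 4 ETS letters within 251 bases, beside 28.0%, 18.4%, 19.6% and 30.1% of all loci. Among the 6 in 3 or more libraries, 2 held AP-1 letters (MMP9 and MMP3), 2 TEAD, 2 RUNX and 3 ETS, beside 29.6%, 18.6%, 19.5% and 30.5% of all such loci. With so few sites no difference from these shares was tested.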

How the data were processed

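ATAC-seq was done by the authors with single-end reads trimmed with Trim Galore (0.4.5) after FastQC (0.11.2), aligned to hg19 with Bowtie2 (2.3.3.1) and stripped of duplicates with Picard. Peaks were called in each library with MACS2 (2.1.0) at q of 0.05. The deposited files list summits with a score that is -log10 of the q-value, and its lowest value in a library was 1.31 to 1.33. A score of this kind grows with sequencing depth, which is why ranks were compared. A shift of reads for the transposase and removal of blacklisted regions are not given in the sources used here.

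Genes came from GENCODE release 44 on GRCh37, and all summit positions lay inside its chromosomes. Ranks, loci and exact permutation tests (20 assignments, two-sided, smallest p 0.1; Benjamini-Hochberg over all loci or all promoters) were computed with Python 3.11.15, numpy 2.4.6, pandas 2.3.3 and scipy 1.17.1, and sequences were read with pysam 0.24.0. The code was tested on simulated data. The genes, lists and tests were chosen with earlier results of these data known, so no p is given for a score over the genes as a set. Named were all 10 genes, the 5 sites with the highest mean rank, sites apart between groups or open in all 6 libraries, and related genes with a promoter peak in all 6 or apart; further names were added after values were seen, among them the remaining sites of the 10 genes. The comparison with 1 Mb on each side of a window and the span between the windows were also chosen after seeing the data. Nothing in the labels says whether replicates were separate cultures, so p-values measure the spread between these libraries only. No pair of libraries shared more than 0.598% of exact summit positions. Other promoter sequences are not reported here.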

Additional observations from a re-analysis of the deposited data

How the results depend on the processing

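The number of sites at which the groups were apart was 1 as reported. The totals given here count every locus in the windows, 16 as reported, and only the 6 in 3 or more libraries could be apart. They are therefore not comparable with the share over loci in 3 or more libraries. The number apart was 0 of 9 at a q of at most 0.0001. With all lists shortened to an equal number of summits it was 2 of 12 (the MMP2 sites in introns 11 and 12). With windows from 50 kb upstream it was 2 of 23 (adding the site beyond MMP13). When each library was left out it was 1 to 3. It was 2 of 14 without Parental 2, 2 of 16 without SAP30-KO1 3 and 3 of 14 without Parental 3. Ranges of 2 against 3 libraries are apart more easily than those of 3 against 3. The share over all loci in these settings is not given, so these counts are not read as a change. The related promoters apart numbered 1 in place of 0 with a promoter of 2.5 kb, where the share over all promoters is not given either. With 1 library left out, the difference (SAP30-KO1 minus Parental) ran from -0.599 to -0.284 for the cluster share per 10000 summits, from -0.593 to -0.355 for that of the other genes, from -10.4 to -0.924 for the cluster rank, from -18.7 to -12.5 for the rank of the other genes, from 6.07 to 13.9 for the cluster minus the other genes, from 3.56 to 13.7 for the cluster minus the rest of 11q and from -1.11 to -0.312 for the promoters. Under the other alternatives on the same scale the difference came as near to 0 as -0.0339 for the cluster share (q of at most 0.0001) and 0 for the promoters, and on log2 scores the cluster minus the other genes was 0.0028 higher in SAP30-KO1; none of these differences took the other sign. The share of the other genes reached from -0.784 to -0.408. The replicate block cannot change a count of sites apart, which is 1 with it by construction, and alters only the p, whose smallest value becomes 0.25. Over 16314 loci, a Parental and a SAP30-KO1 library of the same number were no more alike than 2 of different numbers. The shared number was therefore not read as a pairing.

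Depth is unknown, and with 3 libraries a group no p can go below 0.1. A weak peak missed by the caller counts as rank 0, which affects the sites in few libraries most.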
